A study of Daphnia magna with 48 samples.

Results

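The comparison described here set 4 libraries of the water flea Daphnia magna exposed to arsenic for 4 days against 4 unexposed control libraries of the same day. These are 8 of 48 libraries in the series, and they were taken by their labels alone, without regard to any measured value. Each library is whole-body RNA from animals of a field population, raised in M4 medium, an artificial freshwater. The other 40 libraries held controls and arsenic on days 1 and 2, and copper and a mixture of both metals on days 1, 2 and 4. Neither the dose nor the chemical form of arsenic, nor the animals' age or number in a library, is given in the labels. The labels also do not state whether libraries of one group derive from different cultures, so p-values reflect only how far these libraries spread, and that spread may be technical.

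Daphnia magna is a small freshwater crustacean that reproduces mostly clonally and moults throughout life, and it is a standard animal of toxicity testing. Inorganic arsenic enters animal cells through phosphate transporters and aquaglyceroporins, which are channels for water and small solutes. In its trivalent form it binds thiol groups of proteins and glutathione, and its handling in animals involves oxidative stress defences, heat shock proteins and metal-binding metallothioneins. None of these families could be looked up here. The identifiers of the count table, of the form Dapma7bEVm followed by a number, matched 0 of 28335 entries in the reference gene table for the species, so each gene is given by its identifier only, without name, function or position. For the same reason, genes whose reads may be split with a close paralog or an overlapping neighbour could not be marked.

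Control replicates 1 to 4 held 12255222, 15826553, 11845921 and 11998345 counts in total, and arsenic replicates 1 to 4 held 15802949, 17391143, 14038570 and 11412535. Of 15813 genes tested, 15731 to 15793 had at least 1 count in a given library. No difference between the groups passed the threshold in total counts, the number of genes with a count or the share of counts in the 10 most abundant genes (two-sided exact permutation tests over 4 against 4 libraries, p = 0.371, 0.543 and 0.229, each 0.543 after adjustment over the 3 tests, where the smallest possible unadjusted p is 0.0286). Levels below are in CPM, counts divided by library size and given per 1e6, after TMM scaling, which adjusts for differences in library composition. Where no read was counted, counting error alone leaves room for a level of 3 counts, equal to 0.178 to 0.261 CPM in these libraries.

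Arsenic libraries and controls did not form separate clouds. Over log2(CPM + 0.5) of all tested genes, the first principal component held 28.3% of the variance. Controls 1, 2 and 4 lay at −34.6, −29.0 and −15.2 on it, and arsenic replicates 3 and 4 at 30.8 and 31.8. Arsenic replicates 1 and 2 lay between them at 2.47 and 0.433, and control 3 lay at 13.2, among the arsenic libraries. Across genes, which are not independent replicates, control 3 correlated with the arsenic libraries at r = 0.977 to 0.982 and with the other controls at 0.971 to 0.977. Control 4 correlated with arsenic replicates 1 and 2 at 0.982 to 0.983, above its correlation with any control, and with arsenic replicates 3 and 4 at 0.975. Control 1 stood apart along the second component, at 34.6, while control 4 was at 1.02. On the third component, with 13.6% of the variance, control 3 stood apart at 33.0, and the other libraries ran from −23.7 to 10.6. The spread within a group was similar in both, with a median SD of 0.258 on the log2 scale over genes in controls and 0.239 in arsenic libraries.

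**Figure D1:**
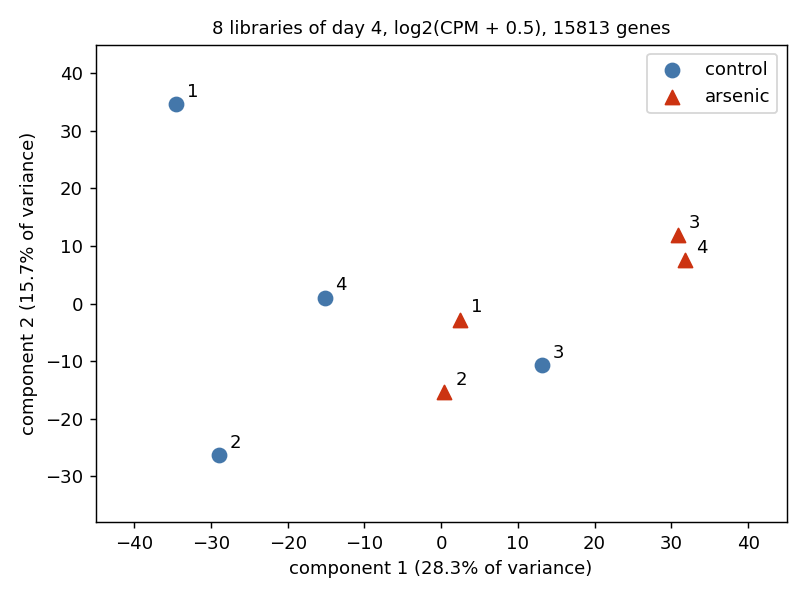
Principal components of the 8 day-4 libraries, with component 1 (28.3% of variance) on the x axis and component 2 (15.7%) on the y axis, from log2(CPM + 0.5) of 15813 genes. Each point is a library with its replicate number; control 3 lies among the arsenic libraries on component 1, and control 1 is highest on component 2.

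Against all 4 controls, 10 genes were lower with arsenic and 0 were higher. This is 0.0632% of the 15813 genes tested (edgeR quasi-likelihood test, adjusted p under 0.05, spread estimated over all 48 libraries). In the higher direction, 512 genes had an unadjusted p under 0.05, and DESeq2 called 2 genes and limma 1. In 8 of the 10 lower genes, control replicates 1 and 4 stood far above all other libraries of the comparison. In each of these 8, both libraries exceeded the other 6 libraries of the comparison by at least 4-fold, counted with 0.5 CPM added. The other called genes were Dapma7bEVm011804t1, in which all 4 controls were high, and Dapma7bEVm012782t1. In Dapma7bEVm012782t1 controls 1 and 4 also lay above the other 6 libraries, but by 3.40-fold, short of the 4-fold rule. In whole bodies a lower level can mean less RNA per cell or fewer cells of a type, and these cannot be told apart.

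**Figure D2:**
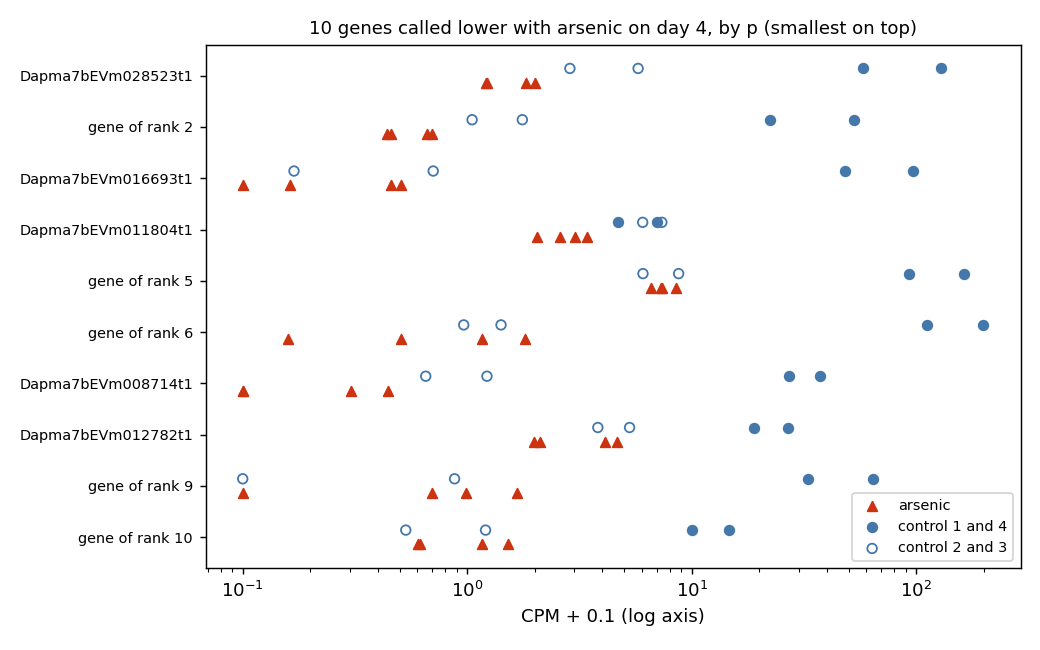
The 10 genes called lower with arsenic on day 4, ordered by p from the top, with CPM + 0.1 on a log x axis. Triangles are the 4 arsenic libraries, filled circles controls 1 and 4, and open circles controls 2 and 3. In every gene but Dapma7bEVm011804t1 the filled circles lie to the right of all other points; the open circles lie near or among the triangles.

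The largest fitted fall was that of Dapma7bEVm016693t1. Control replicates 1 to 4 had 97.0, 0.0692, 0.606 and 48.3 CPM, from 1189, 1, 7 and 556 counts. Arsenic replicates 1 to 4 had 0.0626, 0.356, 0.407 and 0 CPM, from 1, 6, 6 and 0 counts. The groups overlapped, since control 2 lay below arsenic replicates 2 and 3. The fitted log2 fold change was −7.34 (SE 1.22, edgeR adjusted p 0.00209). Without controls 1 and 4 it was −0.57 (SE 1.38, adjusted p 0.951), from 13 counts in arsenic libraries and 8 in controls 2 and 3.

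Dapma7bEVm008714t1 showed the second largest fall. It had 37.0, 0.554, 1.12 and 27.0 CPM in control replicates 1 to 4, and 0, 0, 0.203 and 0.343 CPM in arsenic replicates 1 to 4. All 4 arsenic libraries lay below all 4 controls, with 7 counts among them. The log2 fold change was −6.97 (SE 1.24, edgeR adjusted p 0.00326). Against controls 2 and 3, which held 21 counts, it was −2.66 (SE 1.31, unadjusted p 0.0483, adjusted p 0.879). The ratio of arsenic to these 2 controls, from pooled counts, was 0.146, with a 95% counting interval of 0.0526 to 0.357. This interval covers counting error only and leaves out the spread between libraries.

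The smallest p of the comparison belonged to Dapma7bEVm028523t1. Its controls were at 129, 5.68, 2.77 and 57.8 CPM and its arsenic libraries at 1.13, 1.72, 1.90 and 1.11 CPM. Here too the groups did not overlap, and the lower pair of controls still exceeded every arsenic library. The log2 fold change was −5.04 (SE 0.72, edgeR adjusted p 2.499e-04) with all controls and −1.52 (SE 0.56, unadjusted p 0.00989, adjusted p 0.879) without controls 1 and 4.

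Dapma7bEVm012782t1, named because it was the called gene nearest to the 4-fold rule from outside, had 26.8, 5.19, 3.72 and 18.9 CPM in controls and 4.57, 2.02, 4.00 and 1.89 CPM in arsenic libraries. Controls 1 and 4 were high, 3.40-fold above the highest of the other 6 libraries with 0.5 CPM added, and control 3 lay within the arsenic range. The log2 fold change was −2.12 (SE 0.40, edgeR adjusted p 0.009996). It passed the threshold in 10 of 20 alternative analyses. It was not called without control 1 (adjusted p 0.318), control 4 (0.0862), arsenic replicate 2 (0.120) or arsenic replicate 4 (0.125).

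The 8 genes of controls 1 and 4 were described as a set, without a test, because the same values chose them. They were at 14.5 to 200 CPM in control 1 and at 9.91 to 112 CPM in control 4. In the other 6 libraries they ran from 0 to 8.65 CPM with a median of 0.822 CPM. Control 1 exceeded control 4 in all 8, by a ratio of 1.37 to 2.38 with a median of 1.87. The smallest gap among them was 5.41-fold, and the nearest genes outside the rule reached 3.40-fold, 2.74-fold and 2.14-fold. With no minimum fold, both controls lay above the other 6 libraries in 590 genes (3.73%) and below them in 672 (4.25%). At 4-fold these numbers were 8 (0.0506%) and 0. No count for other pairs is given here, so whether these numbers are large for a pair of libraries was not tested. Taken singly, arsenic replicate 3 lay at least 4-fold below the other libraries of the comparison in 8 genes. Control 4 did so in 3, arsenic replicate 2 in 2 and control 1 in 1. Control 1 also lay at least 4-fold above the others in 1 gene, and no other library did so in any.

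Summed over the 8 genes of controls 1 and 4, control 1 held 758 CPM, control 4 held 403 CPM and controls 2 and 3 held 19.0 and 13.5 CPM. The arsenic libraries held 12.1, 10.9, 13.1 and 12.2 CPM in the order of their replicate numbers. The arsenic sums lay below those of controls 2 and 3. In 3 of the 8 genes, Dapma7bEVm028523t1, Dapma7bEVm008714t1 and Dapma7bEVm010642t1, every arsenic library lay below both of these controls, and in the other 5 the values overlapped. Over all 15813 genes tested, every arsenic library lay below both in 1175 (7.43%). Mixture replicate 1 of day 4 held 115 CPM, with 1.45 to 47.3 CPM per gene, and the other 39 libraries held 7.58 to 19.1 CPM. The genes were not uniformly silent elsewhere. Dapma7bEVm011060t1, the gene of rank 5 by p, singled out after its values were seen, had 5.97 and 8.65 CPM in controls 3 and 2 and 6.46 to 8.41 CPM in arsenic libraries, so it was present in all 8 libraries and higher in the pair.

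Leaving out controls 1 and 4 ended all 10 calls, but not in the same way. Dapma7bEVm011804t1 went from a log2 fold change of −1.21 to −1.30 and missed the threshold at an edgeR adjusted p of 0.0522, while Dapma7bEVm012782t1 went from −2.12 to −0.51 (adjusted p 0.881). In that fit 0 genes passed in edgeR, with 805 genes (5.09%) at an unadjusted p under 0.05, against 1293 (8.18%) with all libraries. The 8 genes then had log2 fold changes of −2.66 to 1.05 with a median of −0.52, beside a median of 0.00 over all genes, and adjusted p of 0.879 to 0.999. Leaving out mixture replicate 1 as well gave 1 call (0.00632%), Dapma7bEVm011804t1, with 835 genes (5.28%) at an unadjusted p under 0.05, 359 (2.27%) higher and 476 (3.01%) lower. Leaving out controls 2 and 3 instead gave 10 calls, 0.0632%, of which 9 were among the original 10, with 1184 genes (7.49%) at an unadjusted p under 0.05, 586 (3.71%) higher and 598 (3.78%) lower. Without control 1 alone 6 genes were called, 5 of them among the 8, and without control 4 alone 7 were called, 6 of them among the 8.

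**Figure D3:**
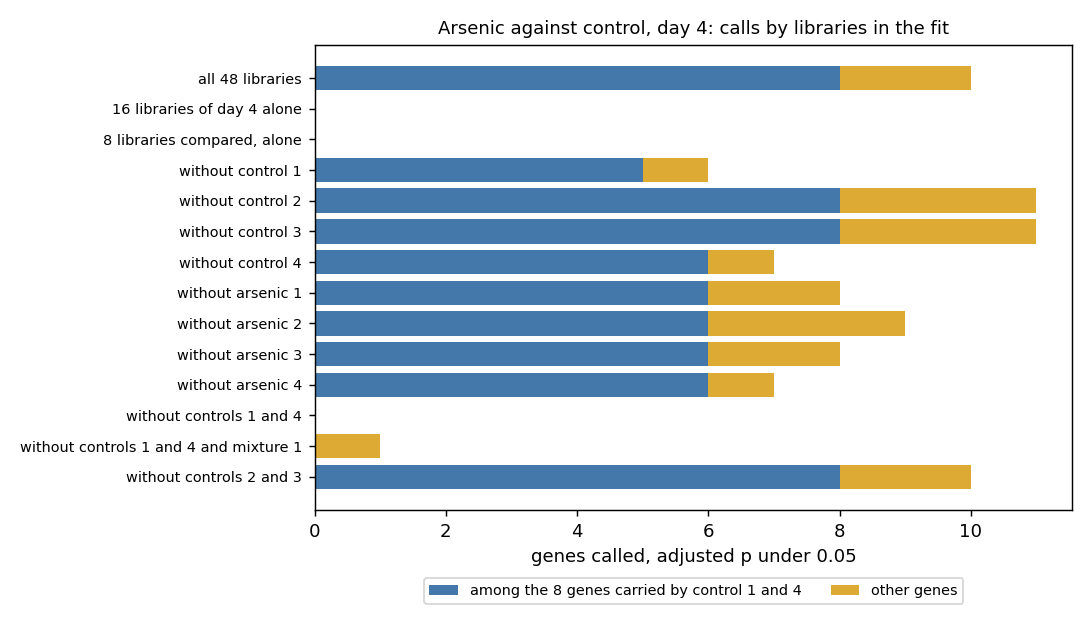
Number of genes called at an adjusted p under 0.05 for arsenic against control on day 4 (x axis), for fits with all 48 libraries, with fewer libraries, or without the libraries named on the y axis. Blue counts the 8 genes carried by controls 1 and 4 by the 4-fold rule, and yellow all other genes, with Dapma7bEVm012782t1 among them. The 10 calls with all libraries become 0 without controls 1 and 4 and 10 without controls 2 and 3.

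The calls were made with the spread estimated over the whole series. Fits restricted to the 16 libraries of day 4 or to the 8 libraries compared called 0 genes in edgeR. In these fits 1868 and 1541 of the 15813 genes had an unadjusted p under 0.05. Dapma7bEVm016693t1 then had log2 fold changes of −7.33 and −7.33 with adjusted p of 0.221 and 0.407. With limma and sample quality weights 2 genes were called, 1 higher and 1 lower, and 0 of them were among the 8. DESeq2 called 15 genes, 2 higher and 13 lower, and all 10 edgeR calls were among them.

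Among the 10 called genes, Dapma7bEVm011804t1 was the one in which controls 1 and 4 did not both lie above controls 2 and 3. It had 6.93, 5.95, 7.27 and 4.61 CPM in control replicates 1 to 4, from 85, 86, 84 and 53 counts. Arsenic replicates 1 to 4 had 1.94, 3.32, 2.92 and 2.49 CPM, from 31, 56, 43 and 29 counts. The lowest control exceeded the highest arsenic library, and the means were 6.19 ± 1.19 and 2.67 ± 0.591 CPM (SD, n = 4 each). The gene was 2.31-fold lower with arsenic (log2 fold change −1.21, SE 0.21, edgeR adjusted p 0.00287).

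The estimate for Dapma7bEVm011804t1 moved little between analyses. It was −1.30 (SE 0.24) against controls 2 and 3 and −1.11 (SE 0.25) against controls 1 and 4, with adjusted p of 0.0522 and 0.0944, each from 2 control libraries. Over 20 alternatives it ran from −1.34 to −1.08 and passed the threshold in 16. The exceptions were those 2 fits and the fits of day 4 alone and of the 8 libraries alone (adjusted p 0.197 and 0.407). It passed when any one of the 8 libraries was left out, with adjusted p of 0.00219 to 0.0457.

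On the earlier days Dapma7bEVm011804t1 showed no difference past the threshold. On day 1 its control mean was 4.39 ± 1.05 CPM and its arsenic mean 5.55 ± 0.934 CPM (log2 fold change 0.34, SE 0.20, edgeR adjusted p 0.875). On day 2 these means were 4.91 ± 0.859 and 4.07 ± 0.759 CPM (−0.27, SE 0.20, adjusted p 1.00). The difference between the arsenic effects of days 4 and 1 was −1.55 on the log2 scale and missed the threshold (SE 0.29, edgeR adjusted p 0.0544). Against day 2 the difference was −0.94 (SE 0.29, adjusted p 0.999).

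The levels of Dapma7bEVm011804t1 with the other metals are given as a description, since the gene was chosen by its values in the same 4 arsenic libraries. On day 4 it was at 4.82, 5.15, 4.01 and 5.05 CPM in copper replicates 1 to 4, and at 3.57, 4.28, 4.76 and 6.89 CPM in mixture replicates 1 to 4. All 8 values lay above the highest arsenic value of 3.32 CPM and all but the highest mixture value lay below the control mean. The fitted log2 fold change was −0.83 (SE 0.21) against copper and −0.87 (SE 0.21) against the mixture. Neither passed the threshold over all genes in edgeR (adjusted p 0.163 and 0.183), in comparisons where 12 and 3 genes, 0.0759% and 0.019%, were called. The mixture held arsenic too, at a dose the labels do not give.

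**Figure D4:**
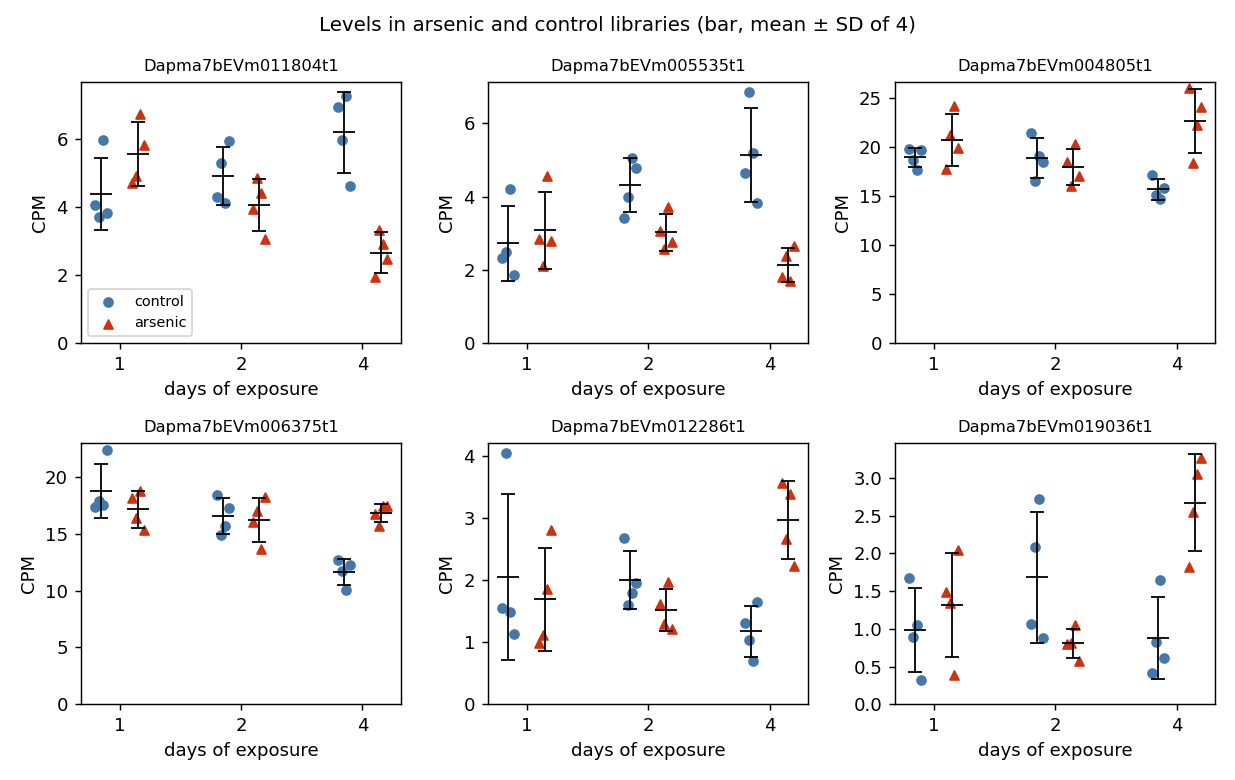
CPM (y axis) of 6 genes after 1, 2 and 4 days (x axis) in control libraries (circles) and arsenic libraries (triangles); bars give the mean ± SD of 4 libraries. On day 4 the arsenic libraries lie below all controls for Dapma7bEVm011804t1 and Dapma7bEVm005535t1 and above all controls for the other 4 genes, while on day 1 the groups overlap in all 6.

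Dapma7bEVm005535t1 was the next gene by p in the fit without controls 1 and 4. It had 4.65, 6.85, 5.19 and 3.82 CPM in controls and 1.82, 2.37, 1.70 and 2.66 CPM in arsenic libraries, without overlap. With all controls the log2 fold change was −1.27 (SE 0.29, unadjusted p 7.28e-05), which missed the threshold in edgeR (adjusted p 0.0969) and passed it in DESeq2 (0.0150). Against controls 2 and 3 it was −1.50 (SE 0.33, adjusted p 0.491). Of 20 alternatives, Dapma7bEVm005535t1 passed the threshold in 1, that of DESeq2. On day 2 its means were 4.31 ± 0.739 CPM in controls and 3.03 ± 0.497 CPM with arsenic, and on day 1 they were 2.73 ± 1.02 and 3.09 ± 1.05 CPM.

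No gene passed the threshold as higher with arsenic in edgeR, so the leading genes are given as values. Dapma7bEVm004805t1 had 17.1, 15.1, 14.7 and 15.8 CPM in control replicates 1 to 4 and 26.0, 18.3, 22.2 and 24.01 CPM in arsenic replicates 1 to 4. The groups did not overlap, and the fitted ratio was 1.44 (log2 fold change 0.53, SE 0.12, edgeR adjusted p 0.0969). Without arsenic replicate 2, its lowest arsenic library, the log2 fold change was 0.62 and the gene was called (adjusted p 0.0328), as it was in DESeq2 (0.0381). Against controls 2 and 3 the value was 0.60 (SE 0.15) and against controls 1 and 4 it was 0.46 (SE 0.15). Of 20 alternatives, the gene was called in 2, the fit without arsenic replicate 2 and DESeq2.

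Dapma7bEVm006375t1 had 12.6, 11.7, 10.04 and 12.3 CPM in controls and 16.7, 15.7, 17.4 and 17.4 CPM in arsenic libraries. Again every arsenic library exceeded every control (log2 fold change 0.53, SE 0.12, edgeR adjusted p 0.132). The gene passed the threshold in 0 of 20 alternatives. Its level in controls had been 18.8 ± 2.40 CPM on day 1 and 16.5 ± 1.57 CPM on day 2, and that with arsenic 17.1 ± 1.59 and 16.2 ± 1.92 CPM. The arsenic mean of 16.8 ± 0.806 CPM on day 4 lay within the range of the 4 earlier means, and the control mean of 11.7 ± 1.15 CPM was the lowest of the 6.

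The same arrangement held for Dapma7bEVm004805t1 in part. Its control mean was 18.9 ± 0.968 CPM on day 1, 18.9 ± 1.99 CPM on day 2 and 15.7 ± 1.07 CPM on day 4, and its arsenic mean was 20.7 ± 2.67, 17.9 ± 1.85 and 22.6 ± 3.26 CPM. Copper and mixture libraries of day 4 stood between, at 17.2 ± 2.48 and 18.2 ± 2.14 CPM. For Dapma7bEVm006375t1 they stood at 14.1 ± 1.36 and 14.98 ± 0.890 CPM. Both genes were chosen by their arsenic and control values of day 4. That choice favours a high arsenic mean, a low control mean and other groups between them. These levels are therefore given as a description.

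Dapma7bEVm012286t1, a gene of low level, was one of the 2 genes of smallest p in the higher direction without controls 1 and 4. It had 1.31, 1.04, 0.692 and 1.65 CPM in controls, from 8 to 19 counts, and 3.57, 2.67, 3.39 and 2.23 CPM with arsenic, from 26 to 57 counts. The groups did not overlap. The log2 fold change was 1.34 (SE 0.33, edgeR adjusted p 0.220) with all controls and 1.76 (SE 0.44, adjusted p 0.577) without the pair. It passed the threshold in 0 of 20 alternatives.

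Below the threshold, more genes leaned lower than higher. At an unadjusted p under 0.05, 781 genes (4.94%) were lower with arsenic and 512 (3.24%) higher. Changes were small. Among the lower genes the median log2 fold change was −0.62 and 146 exceeded 2-fold, and among the higher genes it was 0.38 and 77 exceeded 2-fold. The median over all genes was 0.00, with a median SE of 0.23. All 4 arsenic libraries lay below all 4 controls in 368 genes (2.33%) and above them in 345 genes (2.18%). Against controls 2 and 3 alone the arsenic libraries lay below in 1175 genes (7.43%) and above in 1148 (7.26%), and against controls 1 and 4 alone in 1741 (11%) and 1536 (9.71%).

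Most of these genes kept their direction without controls 1 and 4. Of the 781 lower genes 776 kept their sign without that pair, and 320 (41.0%) still had an unadjusted p under 0.05. Without controls 2 and 3 the corresponding number was 435 (55.7%). Of the 512 higher genes all kept their sign without controls 1 and 4, and 161 (31.4%) had an unadjusted p under 0.05, against 258 (50.4%) without controls 2 and 3. Across the lower genes the median difference on the log2 scale was −0.58 without controls 1 and 4 and −0.65 without controls 2 and 3, and across the higher genes it was 0.36 and 0.41. Both subsets contain the arsenic libraries that chose the genes, and each keeps a pair of the controls that chose them. The kept signs were therefore largely set by that choice. These values describe the dependence on the controls and are not a repeat.

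Leaving out other single libraries also moved the count of 1293, which is 8.18% of the 15813 genes tested. It was 858 without control 1, 810 without control 2, 746 without arsenic replicate 3 and 805 without arsenic replicate 4. A count of 805 is 5.09% of the genes tested, and 746 lies below it. Where nothing differs, an unadjusted p under 0.05 would be met by a share near 0.05. The count was 1270 without control 4 and rose to 1913 without control 3, the control among the arsenic libraries on the first component. Without control 3 the higher genes numbered 832 and the lower 1081.

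**Figure D5:**
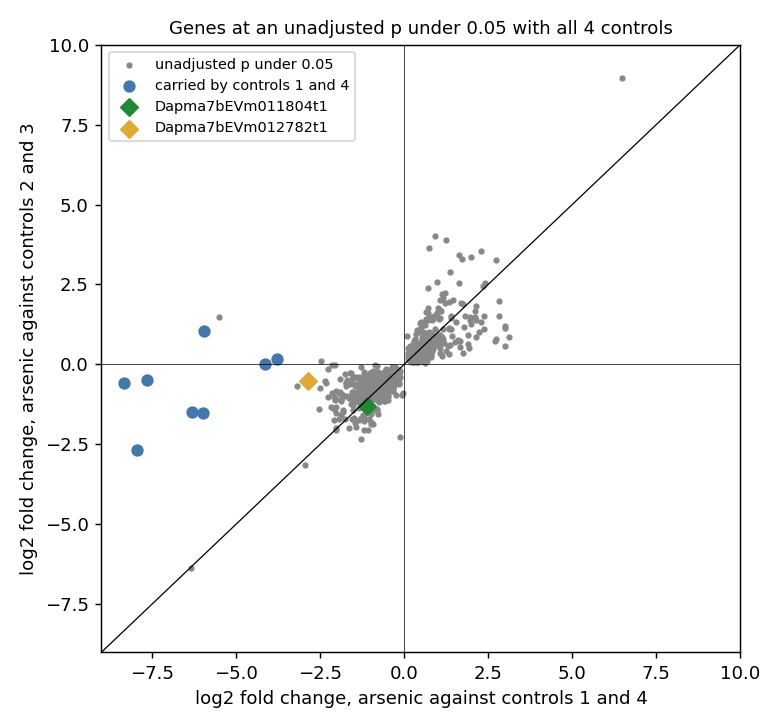
Log2 fold change of arsenic against controls 1 and 4 (x axis) and against controls 2 and 3 (y axis) for the 1293 genes at an unadjusted p under 0.05 with all controls; the line marks equal values. The 8 genes carried by controls 1 and 4 (blue) lie far left of the line at −2.66 to 1.05 on the y axis, while Dapma7bEVm011804t1 (green) lies on it.

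The counts were also taken by level, the mean CPM over the 8 libraries compared. Among 1878 genes with a mean over 100 CPM, 121 (6.44%) were lower and 47 (2.503%) higher at an unadjusted p under 0.05, with median folds of 1.39 and 1.17. Among 5087 genes at 20 to 100 CPM, 258 (5.07%) were lower and 222 (4.36%) higher. Among 3616 genes at 5 to 20 CPM, which held 5 of the 10 calls, 224 (6.19%) were lower and 110 (3.04%) higher. These 5 calls owed that level to the high values of controls 1 and 4, which are part of the mean. Among 5232 genes under 5 CPM, 178 (3.40%) were lower and 133 (2.54%) higher, with median folds of 2.06 and 2.18. The median SE fell from 0.46 in that lowest class to 0.12 in the highest, so a smaller change could reach the same p there. Of the 20 most abundant genes, which held 16.7% of all counts, 0 had an unadjusted p under 0.05, and their log2 fold changes ran from −0.31 to −0.03.

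Whether the arsenic effect itself differed between days was tested directly. For day 4 against day 2, 0 genes were called in edgeR, with 682 (4.31%) at an unadjusted p under 0.05, 371 (2.35%) higher and 311 (1.97%) lower, and DESeq2 called 1 and limma 0. For day 4 against day 1, 0 were called, with 1104 (6.98%) at an unadjusted p under 0.05, 574 (3.63%) higher and 530 (3.35%) lower, and DESeq2 called 1 and limma 0. These counts also moved with single controls. Without control 3 of day 4 the 2 differences gave 2 and 6 calls, without control 2 they gave 2 and 0, without control 4 they gave 0 and 1, and without arsenic replicate 2 they gave 0 and 1.

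The leading genes of the difference between days 4 and 2 are given as values. Dapma7bEVm001465t1 was at 15.6 ± 2.95 CPM in controls and 9.67 ± 2.29 CPM with arsenic on day 2, and at 13.7 ± 1.01 and 17.8 ± 1.85 CPM on day 4 (log2 difference of effects 1.07, SE 0.25, edgeR adjusted p 0.562). Dapma7bEVm019036t1 was at 0.408, 0.831, 1.64 and 0.608 CPM in day-4 controls and 1.82, 2.55, 3.05 and 3.26 CPM in day-4 arsenic libraries, without overlap (log2 difference 2.66, SE 0.66, adjusted p 0.562). Both had arsenic below control in the mean on day 2 and above it on day 4. A choice of genes by this difference favours such a change of sign, which is therefore given as a description.

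In the lower direction the leading genes were Dapma7bEVm028523t1, described above (log2 difference −4.90, SE 0.97, edgeR adjusted p 0.158), and Dapma7bEVm002972t1. For Dapma7bEVm028523t1 the difference was −1.38 without controls 1 and 4 (adjusted p 0.997), and it was called in 4 of 18 alternatives. Dapma7bEVm002972t1 had 31.9, 31.4, 35.5 and 26.7 CPM in day-4 controls and 21.6, 24.4, 22.8 and 22.0 CPM in day-4 arsenic libraries. Its groups did not overlap on day 4 (log2 fold change −0.47, SE 0.12, adjusted p 0.246). On day 2 arsenic was at 31.5 ± 4.601 CPM and control at 26.2 ± 3.93 CPM, and the difference of effects was −0.73 (SE 0.17, adjusted p 0.553).

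Between days 4 and 1, Dapma7bEVm021763t1 and Dapma7bEVm010629t1 led in the higher direction. Their arsenic means were below the control means on day 1 and above them on day 4. The choice of genes by this difference favours such a change of sign. On day 4 the groups overlapped in both genes, with log2 fold changes of 0.66 (SE 0.54, edgeR unadjusted p 0.232) and 0.59 (SE 0.31, 0.0642). On day 1 these were −3.16 (SE 0.69) and −1.25 (SE 0.33), with edgeR adjusted p of 0.123 and 0.387. Dapma7bEVm021763t1 was at 0.0912 ± 0.118 CPM with arsenic and 1.02 ± 0.851 CPM in controls on day 1, the arsenic mean being below the level of 3 counts, and at 1.10 ± 0.226 and 0.692 ± 0.305 CPM on day 4 (log2 difference 3.82, SE 0.88, edgeR adjusted p 0.406). Dapma7bEVm010629t1 was at 1.11 ± 0.478 and 2.71 ± 1.51 CPM on day 1 and at 3.01 ± 0.970 and 1.99 ± 0.758 CPM on day 4 (1.84, SE 0.45, adjusted p 0.492). The leading genes in the lower direction were Dapma7bEVm011804t1 and Dapma7bEVm008714t1 (log2 difference −8.04, SE 1.78, adjusted p 0.406), the latter with the high values of controls 1 and 4 on day 4. Without that pair the difference for Dapma7bEVm008714t1 was −3.74 (adjusted p 0.893).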

How the data were processed

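The authors' deposited table holds 1 whole-number count per gene and library. It is named as normalised, but library totals ran from 7933693 to 20058325 and no whole number from 0 to 30 was missing in any of the 8 libraries, so it was analysed as counts. TopHat2 2.1.1, HTSeq and edgeR are named in the submitters' processing notes without role or order; the genome build, the gene models and the strandedness of counting were not given in the sources used here. All 16066 rows reached 1.00 CPM or more in 3 libraries. Genes with at least 14 counts (1 CPM at the median total) in at least 4 libraries were tested (15813; 253 left out). EdgeR 4.0.16 in R 4.3.3 was run with TMM, a model of 12 groups over 48 libraries, the two-sided quasi-likelihood F test and Benjamini-Hochberg adjustment over all genes tested; SE is the log2 fold change divided by the square root of F. DESeq2 1.42.0 and limma 3.58.1 (voom with sample quality weights) were alternatives. The steps were tested on simulated data. Duplicate deposits were looked for within groups, and every pair of libraries differed by more than counting error (lowest chi-square over its degrees of freedom, 11.3). Named genes were the 2 with the largest fitted change among called genes in each direction, or of smallest p where too few were called, in the comparison with all libraries and without controls 1 and 4, and in each difference between days; Dapma7bEVm012782t1 was added after its values were seen. Comparisons, lists and rules were chosen with earlier results of these data known.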

Additional observations from a re-analysis of the deposited data

Results flagged for a closer look

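Library measures and named genes were examined in the 2 groups of 4 for a single library far from the other 3 by Dixon's criterion, which compares the gap to the nearest library with the range. Chance meets this in about 1 of 20 groups, which is 1.7 of the 34 examined, and 2 met it. The total of control replicate 2, 15826553 counts, lay far above the other controls (gap 0.897 of the range). The share of counts in the 10 most abundant genes was 12.8% in control replicate 1, below 14.3% to 14.4% in the other controls (gap 0.914 of the range); its part in the result was not tested. The high values of controls 1 and 4 do not meet the criterion, since a pair of high libraries leaves no single library apart.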

How the results depend on the processing

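The 10 calls (0 higher, 10 lower) stayed within 1.5 times under no filter (14), other scaling (10 each for DESeq2 size factors and upper quartile factors), robust dispersion (10), DESeq2 (15) and without controls 2 and 3 (10). They changed to 2 (1 higher, 1 lower) with limma, to 0 with the libraries of day 4 or the 8 libraries alone, to 0 without controls 1 and 4, and to 1 without these and mixture replicate 1. DESeq2 called 2 higher genes. Leaving out single libraries gave 6 to 11 calls, 6 to 11 lower and 0 to 2 higher. With the replicate number within each day as a replicate block, 5 genes were called, 5 lower. Whether the numbers pair the samples cannot be decided from 4 pairs. Deviations of same-numbered arsenic and control libraries correlated at −0.0519 to 0.175, over 0.1 in 1 of 4 pairs. Of the 4 arsenic libraries, 2 correlated best with their own number.

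Genes at an unadjusted p under 0.05 (1293; 512 higher, 781 lower) numbered 805 (338 and 467) without controls 1 and 4 and 835 (476 lower) without these and mixture replicate 1. Limma gave 769 higher; the day-4 libraries alone gave 1868 in all. Of the 15813 genes tested, leaving out single libraries gave 746 to 1913 in all, 305 to 832 higher and 441 to 1081 lower. Without controls 2 and 3 the split was 586 higher and 598 lower.

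The differences between days (0 calls each) gave 1 each with DESeq2 and 8 each without controls 2 and 3; single libraries left out gave 0 to 2 for day 4 against day 2 and 0 to 6 against day 1. The genes named by the rule kept their direction in every alternative run for them; of the 8 genes carried by controls 1 and 4, Dapma7bEVm011060t1, Dapma7bEVm012053t1 and Dapma7bEVm007185t1 went from −3.20, −4.96 and −2.86 to 0.0017, 1.05 and 0.17 on the log2 scale without that pair. Leaving out single libraries kept the 3 library measures on the same side of the threshold. With all 8 libraries, the smallest possible unadjusted p of these permutation tests is 0.0286. Adjustment over the 3 measures therefore left little room to cross the threshold. The cause of the changes in calls and estimates was not tested. The median SE of the log2 fold change was 0.46 for genes under 5 CPM, so small changes of such genes were not detectable with these libraries. Counting error and the spread between libraries both enter this SE, and their shares were not tested.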
